A study of Mus musculus with 16 samples.

Results

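Immediate early genes and genes of the MAP kinase pathway were followed across the 16 arrays as a set of 37 named genes, taken by symbol. The set was chosen with earlier results of these data known. Shares of members set beside shares of all genes therefore describe the set and are no independent test of it. All 37 were on the array, through 45 probes, and 35 of them were among the 28972 genes tested. Dusp5 stood well above background on 0 arrays and Nr4a3 on 3, so neither entered a test, and 546 of the 560 values of the 35 tested members were well above background. The tested members were 9 subunits of AP-1 (Fos, Fosb, Fosl1, Fosl2, Jun, Junb, Jund, Atf3, Maff), 6 zinc finger factors (Egr1, Egr2, Egr3, Klf2, Klf4, Klf6), 4 other transcription factors (Nr4a1, Nr4a2, Csrnp1, Myc), 6 other early genes (Ier2, Ier3, Ier5, Btg2, Zfp36, Arc), 5 brakes on the pathway (Dusp1, Dusp4, Dusp6, Spry2, Spry4) and 5 kinases (Mapk3, Map2k1, Map2k2, Mapk8, Mapk14).

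The study asked what loss of the cannabinoid 1 receptor from skeletal muscle does under each of 2 diets. RNA came from frozen skeletal muscle, the muscle not being named, of male littermates aged 21 to 23 weeks, in 4 groups of 4 mice. WT mice (Skm-CB1R+/+) kept the receptor gene Cnr1, and CB1KO mice (Skm-CB1R-/-) carried loxP-flanked Cnr1 with Cre driven by the Acta1 promoter, which is active in skeletal muscle fibres, so that receptor in other cells of the tissue was left in place. Each genotype received a standard diet (SD, 16.7% of energy as fat and 12.4% as sugar) or HFHS, a diet rich in fat and sugar (49.2% and 32.2%), for 15 weeks. Groups follow the sample titles. The diet tag instead gives SD for all WT samples and HFHS for all CB1KO samples, and the growth protocol lists Cre in both genotypes. The treatment protocol also names an assignment to vehicle or S961, an insulin receptor antagonist, without saying which sample received which. The 8 arrays of each diet were printed on a slide of their own, and on each slide the genotypes filled different rows. Diet therefore cannot be told apart from slide, nor genotype from row.

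Immediate early genes are switched on within minutes of a stimulus from factors already present in the cell, without new protein synthesis. Growth factors, cytokines, contraction, calcium and stress reach them through the MAP kinases ERK, JNK and p38. These act, directly or through further kinases, on ternary complex factors, CREB and Jun at the promoters of the early genes. The products include transcription factors such as AP-1 dimers, and proteins that end the signal, such as the dual specificity phosphatases and Zfp36. In skeletal muscle many of them are known to respond to exercise, injury and tissue handling, and their transcripts last only a short time.

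Promoter letters are printed here for a few members picked by hand, as examples of matches to known elements. Of the 37 members, 28 had an entry in RefSeq's promoter table (build GRCm38.p6), which covers 250 bases before to 50 after each start. The first pair shows the serum response element, the CArG box, in capitals. It was found in 3 of the 28 members (Dusp5, Egr2 and Zfp36) against 1.81% of all genes in the table. The Egr2 stretch lies at chr10:67537787-67537816, plus strand, and the Zfp36 stretch at chr7:28379229-28379428, minus strand.
Egr2: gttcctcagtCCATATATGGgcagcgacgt
Zfp36: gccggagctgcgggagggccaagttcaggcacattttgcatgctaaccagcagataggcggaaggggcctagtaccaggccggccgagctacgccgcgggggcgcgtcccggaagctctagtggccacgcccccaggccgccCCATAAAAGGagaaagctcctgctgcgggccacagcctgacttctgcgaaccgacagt

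The second set shows the cAMP response element TGACGTCA and its core TGACG, both strands searched, in capitals. The full element contains the core on each strand. The full element was found in 3 of 28 members (Btg2, Dusp1 and Maff) against 2.03% of genes, and the core in 17 of 28 against 23.0% of genes. Fos held the core 2 times and no full element in the window. The stretches lie at chr1:134079156-134079355, minus strand for Btg2, at chr17:26508473-26508672, minus strand for Dusp1, at chr15:79347480-79347509, plus strand for Maff and at chr12:85473690-85473889, plus strand for Fos.
Btg2: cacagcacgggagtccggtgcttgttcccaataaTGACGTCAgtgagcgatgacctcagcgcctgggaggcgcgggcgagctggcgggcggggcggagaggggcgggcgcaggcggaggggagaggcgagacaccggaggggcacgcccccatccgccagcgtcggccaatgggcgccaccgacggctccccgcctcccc
Dusp1: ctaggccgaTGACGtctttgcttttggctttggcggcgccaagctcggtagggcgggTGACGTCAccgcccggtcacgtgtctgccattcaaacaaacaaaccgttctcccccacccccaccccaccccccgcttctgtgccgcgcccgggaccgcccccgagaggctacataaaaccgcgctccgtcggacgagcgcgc
Maff: ggctggggcggTGACGTCActgcatgactg
Fos: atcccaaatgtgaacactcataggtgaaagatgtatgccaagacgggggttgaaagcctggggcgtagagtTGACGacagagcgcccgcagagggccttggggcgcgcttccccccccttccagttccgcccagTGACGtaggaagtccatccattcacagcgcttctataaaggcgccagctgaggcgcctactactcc
The AP-1 site TGACTCA was found in 1 of 28 members, Csrnp1, against 5.95% of genes, and the EGR site GCGGGGGCG in 6 of 28 (Fosb, Fosl2, Klf2, Klf4, Nr4a1 and Zfp36) against 3.31%. These matches describe letters in a window and say nothing of binding.

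Levels are given as log2 of the processed intensity relative to the 75th percentile of the same array, so 0 is the brightness that 75% of its probes lie below. A fold change is the difference of such levels. Each difference was tested with limma across all 28972 genes with Benjamini-Hochberg adjustment, and a gene was called at an adjusted p under 0.05. The labels call the samples biological replicates. The share of spots well above background ran from 56.7% to 75% over the arrays, and the SD of log2 signal was lowest on CB1KO_SD replicate 2 (2.86) and highest on CB1KO_HFHS replicate 1 (3.97). Markers of muscle fibres were high on every array, with a summed level between 11.36 and 12.28. Cnr1 itself was dim: its group means were -2.54 ± 0.73 in WT_SD, -2.77 ± 0.71 in CB1KO_SD, -2.09 ± 0.64 in WT_HFHS and -2.23 ± 0.7 in CB1KO_HFHS (SD, n = 4). It did not separate the genotypes (log2 difference -0.23 ± 0.46 SE on SD and -0.14 ± 0.46 on HFHS, limma adjusted p = 0.94 and 0.932), and whether its probe lies in the deleted part of the gene is not given in the sources used here. The array therefore does not check the genotype labels.

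On the standard diet, most early genes were brighter in CB1KO than in WT muscle, led by Atf3, Fos, Fosb, Btg2, Nr4a2, Zfp36 and Egr1, while the kinases above them stayed close to level. Of the 35 tested members, 32 had a higher mean in CB1KO, with a median log2 difference of 1.07, against a median of -0.12 and 32.6% above 0 over all genes tested. No member passed the adjusted threshold in limma, where 0.00345% of genes (1 of 28972) did. At an unadjusted p under 0.05, 21 of 35 members were higher, against 2.22% of all genes, and 1 was lower, against 6.5%. In either direction the number was 22. With 1 array left out it ran from 16 (without WT_SD replicate 3 or CB1KO_SD replicate 4) to 24 (without WT_SD replicate 1 or 2). The median of the members then ran from 0.78 without WT_SD replicate 3 to 1.35 without CB1KO_SD replicate 1. In 12 members every CB1KO array was above every WT array, against 0.98% of all genes, and in 1 member every CB1KO array was below, against 2.98%. A log2 difference above 1 was seen in 18 of 35 members, against 1.32% of all genes.

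**Figure D1:**
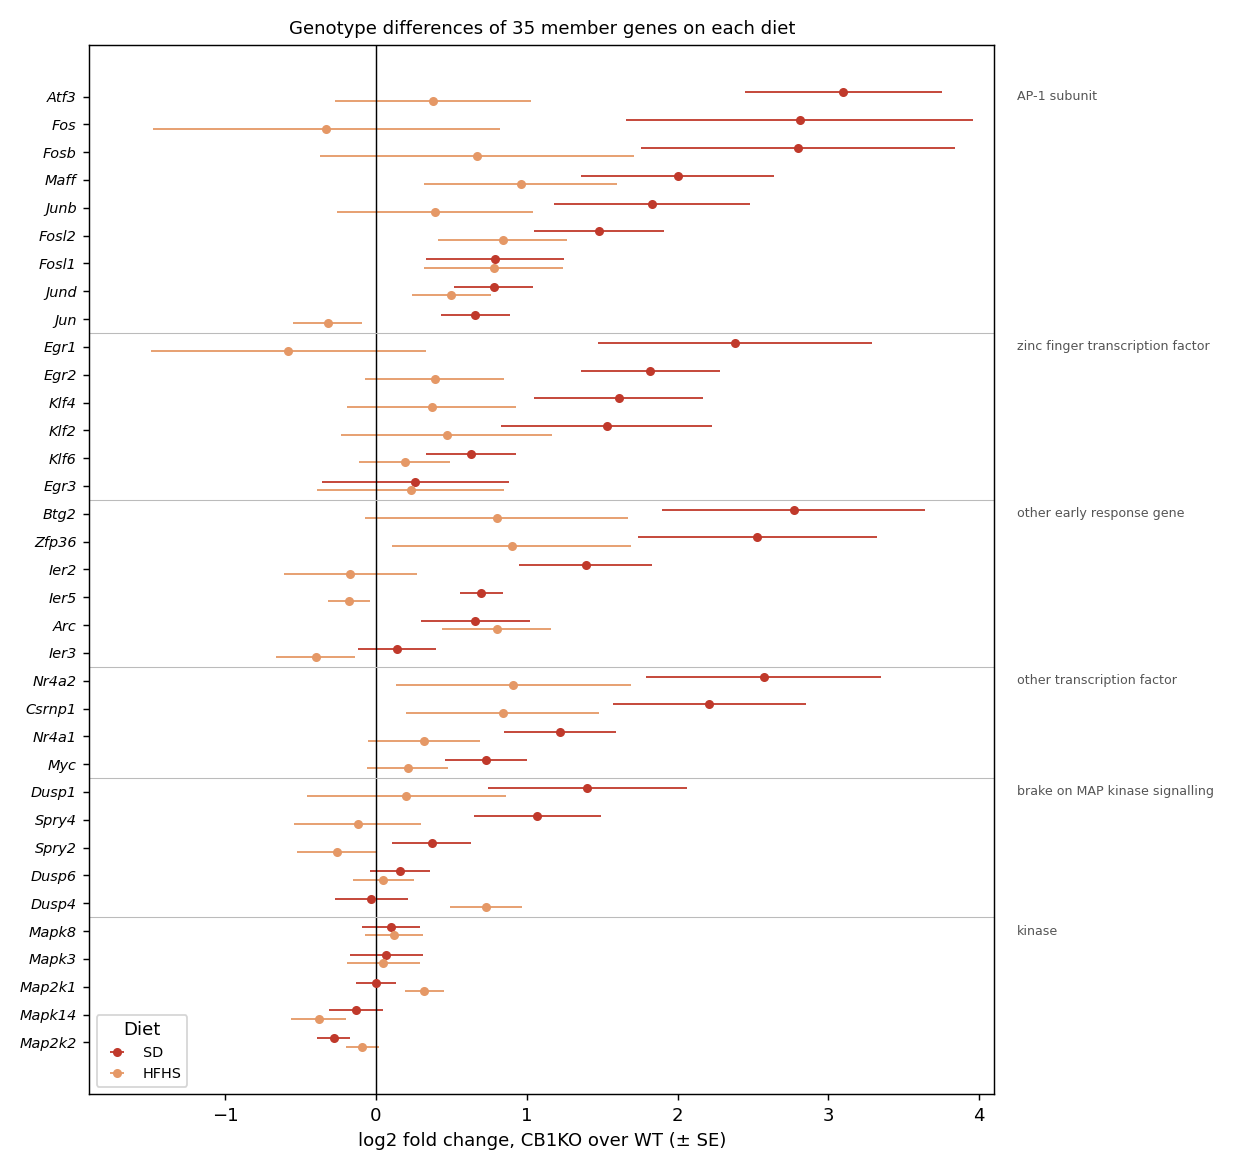
Log2 fold change of CB1KO over WT (x axis, points with SE bars) for the 35 tested members, ordered by role and then by size on SD, on SD (red) and HFHS (orange). On SD the AP-1 and other early genes extend to 3.1 (Atf3) while the 5 kinases lie between -0.28 and 0.1, and on HFHS the points lie between -0.58 and 0.96.

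The AP-1 subunits had the highest median of the roles on SD (1.83, with 9 of 9 above 0 and 8 at an unadjusted p under 0.05). AP-1 is a dimer of Fos, Jun and Atf proteins, and Atf3 is its stress-responsive member. Atf3 stood at 0.17, 1.8, 0.31 and -0.23 on the WT_SD arrays and at 2.33, 3.65, 4.21 and 4.27 on the CB1KO_SD arrays. The groups did not overlap, and the 8.58-fold difference (log2 3.1 ± 0.65 SE) had a limma adjusted p of 0.184. An exact permutation test on these 8 arrays gave p = 0.0286, two-sided, the smallest that 4 against 4 allows.

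Fos, the prototype immediate early gene, behaved otherwise in WT: it read 3.7, 4.81, 0.4 and 0.73 in WT_SD against 4.89, 4.87, 5.36 and 5.76 in CB1KO_SD. The WT arrays split into 2 high and 2 low ones, with an SD of 2.18 against 0.43 in CB1KO. The CB1KO arrays were all higher, but WT replicate 2, at 4.81, came close to the lowest of them, at 4.87, and the log2 difference of 2.81 ± 1.15 had a limma adjusted p of 0.513. Fosb, a close relative of Fos, showed the same split, with 2.21, 3.6, -1.65 and -0.79 in WT_SD against 3.34 to 3.99 in CB1KO_SD, and 1 WT array lay inside the CB1KO range.

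Fosl2 and the Jun genes spanned a narrower range. Fosl2, a longer-lived Fos relative, read 1.47, 1.78, 1.01 and 0.53 in WT_SD against 1.95, 2.37, 2.79 and 3.62 in CB1KO_SD (log2 difference 1.48 ± 0.43, limma adjusted p = 0.333), with no overlap. Its dimmer second probe gave a smaller difference, 0.35, and on HFHS the opposite sign (-0.68 against 0.84). Jun, the main partner of Fos, read 6.34, 6.44, 5.71 and 5.66 against 6.29, 6.35, 7.16 and 6.99, so that its groups overlapped (0.66 ± 0.23, limma adjusted p = 0.433). Jund, the Jun protein of resting cells, read 4.49, 5.22, 4.74 and 4.64 against 5.91, 5.5, 5.48 and 5.34 and did not overlap (0.78 ± 0.26, limma adjusted p = 0.415). Junb did not overlap either, at -3.02 to -1.69 against -0.82 to 0.32.

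Maff, a small Maf protein that also enters AP-1-like dimers, read -0.26, 0.45, -0.36 and -1.2 in WT_SD against 0.33, 1.46, 2.17 and 2.68 in CB1KO_SD. A single CB1KO array fell inside the WT range (log2 difference 2 ± 0.64, limma adjusted p = 0.377). Fosl1 was well above background on 1 of 4 WT_SD and 2 of 4 CB1KO_SD arrays, and its difference of 0.79 ± 0.46 rests on dim spots.

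**Figure D2:**
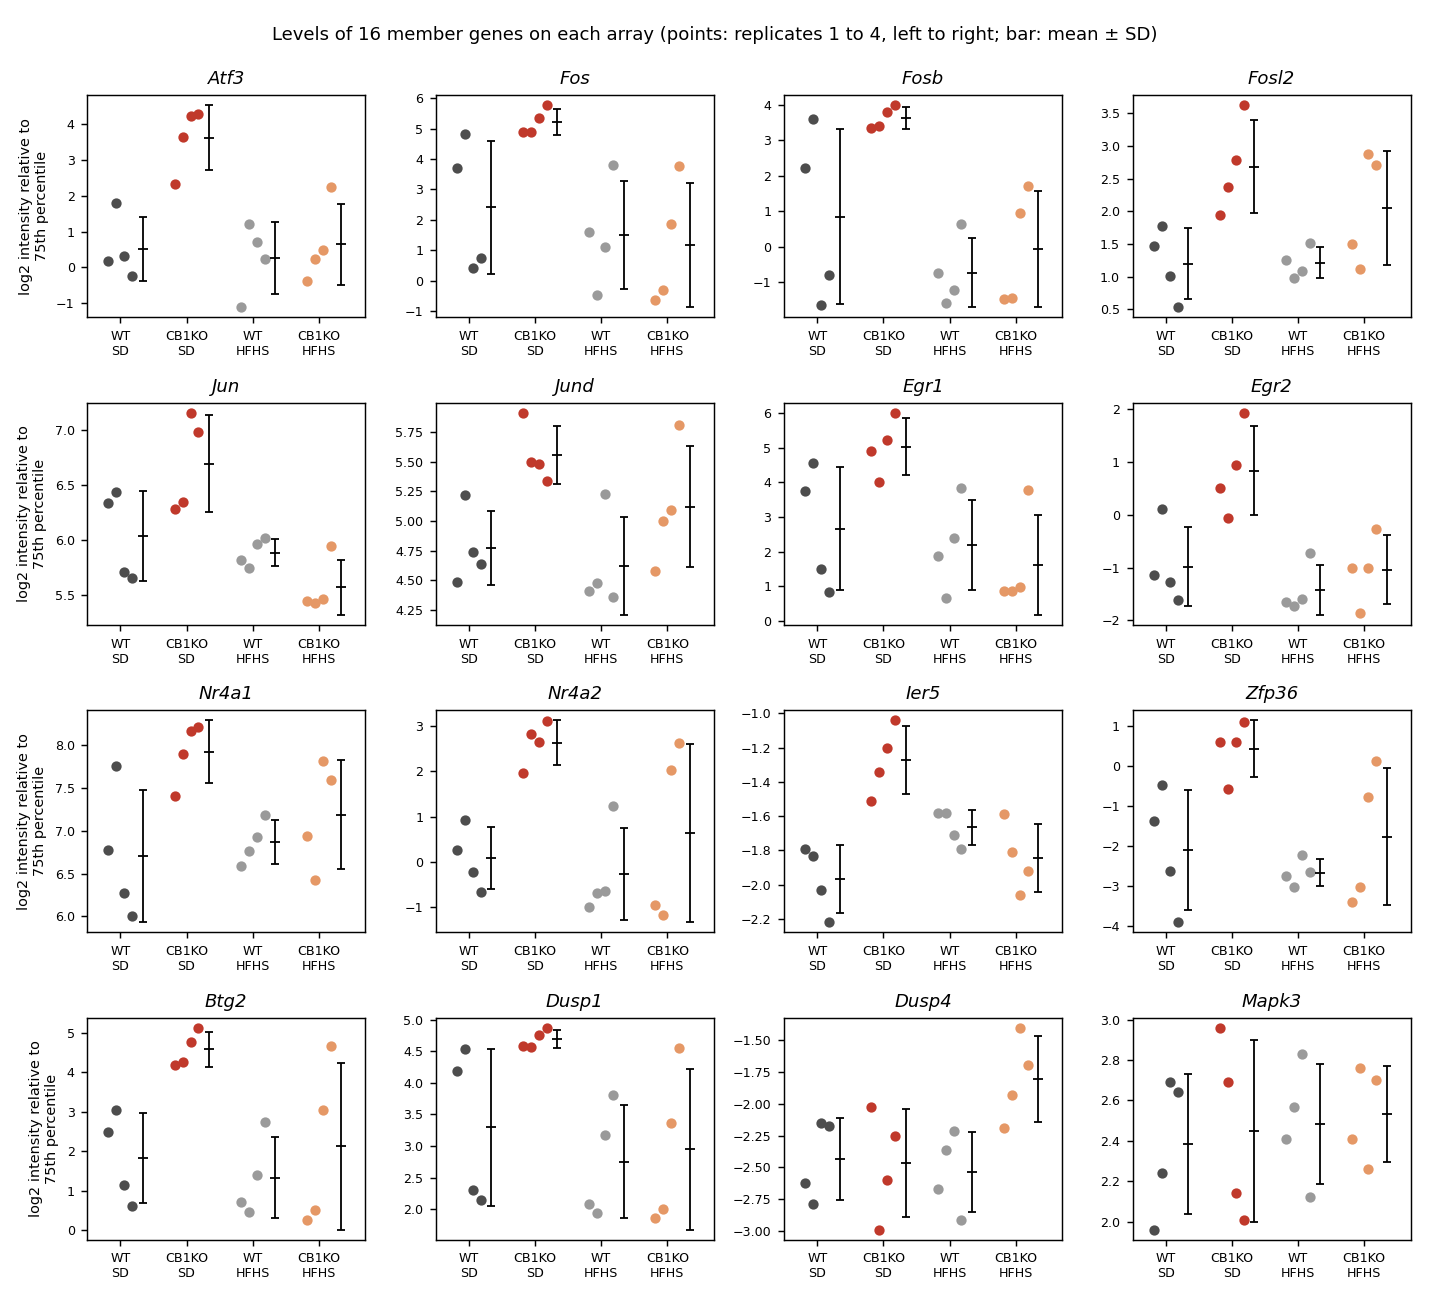
Levels (y axis, log2 intensity relative to the array's 75th percentile) of 16 members on every array, by group, with replicates 1 to 4 from left to right in each group and the mean ± SD beside them. Fos, Fosb and Dusp1 split into 2 high and 2 low arrays in WT_SD, Nr4a2, Btg2 and Zfp36 split likewise in CB1KO_HFHS, and Mapk3 shows overlapping groups throughout.

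The zinc finger factors had a median log2 difference of 1.57 on SD, with 6 of 6 above 0 and 4 at an unadjusted p under 0.05, but in none of the 6 were the groups apart. Egr1, a direct target of ERK through serum response elements, read 3.74, 4.56, 1.49 and 0.83 in WT_SD against 4.91, 4, 5.23 and 6.01 in CB1KO_SD. The same WT arrays that were high for Fos, replicates 1 and 2, were high for Egr1, and the log2 difference of 2.38 ± 0.91 had a limma adjusted p of 0.48. Egr2, its relative, read -1.15, 0.11, -1.28 and -1.61 against 0.51, -0.06, 0.95 and 1.93 (1.82 ± 0.46, limma adjusted p = 0.271), with a single array on each side in the other's range. Klf2 and Klf4, which endothelial cells and other cell types express, gave 1.53 ± 0.7 and 1.61 ± 0.56, with WT replicates 1 and 2 again high (4.79 and 5.23 for Klf2, against 2.41 and 1.8). Klf6 gave 0.63 ± 0.3 and Egr3 0.26 ± 0.62.

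Among the other transcription factors, with a median of 1.71 on SD, the orphan nuclear receptor Nr4a2 had the largest difference. Nr4a2, which binds DNA without a known hormone ligand, read 0.26, 0.93, -0.22 and -0.67 in WT_SD against 1.96, 2.82, 2.65 and 3.12 in CB1KO_SD. The groups did not overlap (log2 difference 2.57 ± 0.78, limma adjusted p = 0.348), and its second probe gave a like difference of 2.74. Nr4a1, the relative that muscle induces on exercise and beta-adrenergic signalling, read 6.78, 7.76, 6.27 and 6.01 against 7.41, 7.9, 8.17 and 8.21, and overlapped through 1 WT array (1.22 ± 0.37, limma adjusted p = 0.343). The third member, Nr4a3, was too dim to test, and its probe differed by 2.11 on SD and 0.97 on HFHS.

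Csrnp1, a nuclear protein induced by axin, read 1.47, 2.49, 0.62 and 0.76 in WT_SD against 3.03, 2.97, 3.93 and 4.24 in CB1KO_SD. It did not overlap (log2 difference 2.21 ± 0.64, limma adjusted p = 0.333). Myc, a growth regulator, read -0.35, -0.37, -0.08 and -0.14 against 0.05, 0.02, 0.85 and 1.05, and did not overlap although its difference was small (0.73 ± 0.27, limma adjusted p = 0.458).

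The other early genes gave a median of 1.05 on SD. Btg2, an antiproliferative gene and p53 target, read 2.48, 3.05, 1.15 and 0.6 in WT_SD against 4.18, 4.27, 4.76 and 5.13 in CB1KO_SD, with no overlap (log2 difference 2.77 ± 0.87, limma adjusted p = 0.366). Zfp36, which encodes tristetraprolin, a protein that binds AU-rich messages and speeds their decay, read -1.37, -0.48, -2.63 and -3.91 against 0.6, -0.57, 0.59 and 1.1. A single CB1KO array lay below the highest WT array (2.53 ± 0.79, limma adjusted p = 0.365). Zfp36 was well above background on 3 of the 4 WT_SD arrays. Its value of -3.91 lay below the lowest such level on that array, -3.23. Ier2 read -1.63, -1.19, -2.23 and -1.79 against -0.19, 0.11, -0.84 and -0.34, with no overlap (1.39 ± 0.44, limma adjusted p = 0.365).

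Ier5, an early gene linked to heat shock factor activity, had the smallest p of the members on SD with a small difference. It read -1.79, -1.83, -2.03 and -2.22 in WT_SD against -1.51, -1.34, -1.2 and -1.04 in CB1KO_SD, with an SD of 0.2 in each group. The log2 difference was 0.7 ± 0.14 (limma adjusted p = 0.171), and its second probe gave 1.51. It passed the threshold under 4 of 21 alternatives, among them the mean of both probes. Arc gave 0.66 ± 0.36 and Ier3 0.14 ± 0.26, both with overlapping groups.

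The brakes differed among themselves. Dusp1, a phosphatase that switches off p38, JNK and ERK, read 4.19, 4.54, 2.3 and 2.15 in WT_SD against 4.58, 4.56, 4.76 and 4.87 in CB1KO_SD, so the groups were apart by a hair (log2 difference 1.4 ± 0.66, limma adjusted p = 0.585). Spry4, an inhibitor of receptor tyrosine kinase signalling, gave 1.07 ± 0.42 from dim spots, 2 of 4 WT_SD arrays being well above background. Spry2 gave 0.37 ± 0.26, Dusp6, the ERK-specific phosphatase, 0.16 ± 0.2, and Dusp4 -0.03 ± 0.24. Neither Dusp6 nor Spry2 reached an unadjusted p under 0.05 in a genotype comparison, whereas Spry4 did on SD (limma unadjusted p = 0.0226).

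The kinases lay between -0.28 and 0.1 on SD, with a median of 0. Mapk3, which encodes ERK1, gave 0.07 ± 0.24, Mapk8 (JNK1) 0.1 ± 0.19, Mapk14 (p38 alpha) -0.13 ± 0.18 and Map2k1 (MEK1) 0 ± 0.13. Map2k2 (MEK2) read 4.64, 4.66, 4.75 and 4.72 in WT_SD against 4.58, 4.13, 4.56 and 4.39 in CB1KO_SD, lower on every CB1KO array (log2 difference -0.28 ± 0.11, limma adjusted p = 0.513). These are transcript levels, and kinase activity was not measured.

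**Figure D3:**
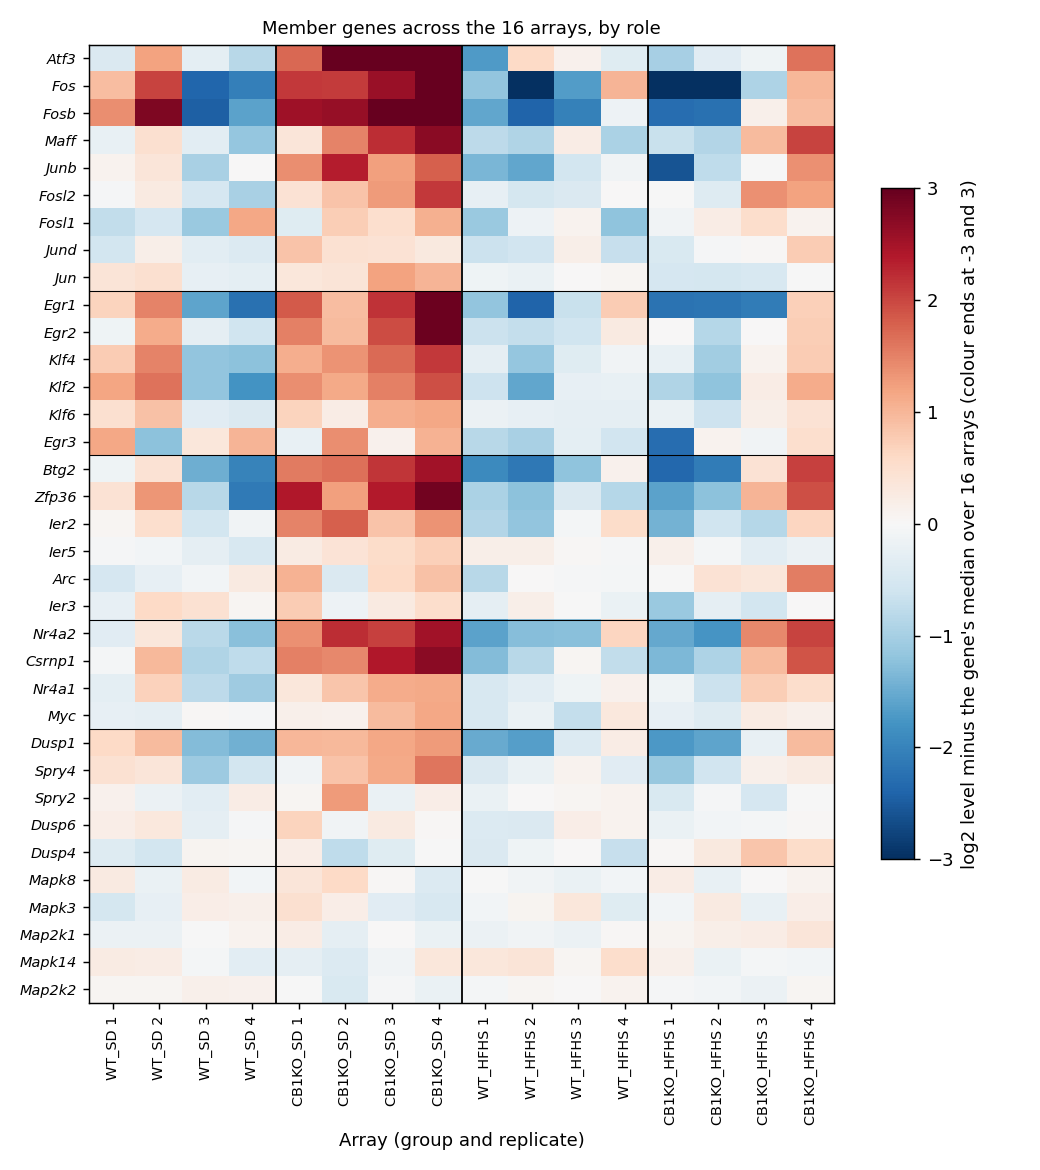
Level of each of the 35 tested members on each of the 16 arrays (x axis), as the log2 difference from the gene's own median over the arrays, shown by colour that ends at -3 and 3, with members grouped by role. The 4 CB1KO_SD columns are red for nearly all early genes, WT_SD replicates 1 and 2 and CB1KO_HFHS replicates 3 and 4 are red for many, and the kinase rows at the bottom stay pale.

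On HFHS, Dusp4, Map2k1 and Arc had the smallest p of the members, and the early genes spread widely within both genotypes. The members' median log2 difference was 0.32, with 25 of 35 above 0, against a median of -0.13 and 32.3% above 0 over all genes. None passed the adjusted threshold in limma, where 0.235% of genes did. At an unadjusted p under 0.05, 3 members were higher (3.48% of all genes) and 0 lower (1588 of 28972 genes), beside 8.96% of all genes in either direction. Leaving out WT_HFHS replicate 1 or CB1KO_HFHS replicate 4 left 1 such member, without CB1KO_HFHS replicate 1 there were 7, and without WT_HFHS replicate 2 or 4 there were 2. The median of the members was 0.02 without CB1KO_HFHS replicate 4, 0.14 without CB1KO_HFHS replicate 3, 0.17 without WT_HFHS replicate 2 and 0.21 without WT_HFHS replicate 1. With the arrays of lowest and highest signal spread left out, 7 members were under 0.05. Groups did not overlap in 2 members, both higher in CB1KO, against 3.36% of all genes.

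Those 2 were Dusp4 and Map2k1. Dusp4, a nuclear phosphatase of ERK and JNK, read -2.67, -2.36, -2.21 and -2.91 in WT_HFHS against -2.19, -1.93, -1.4 and -1.69 in CB1KO_HFHS (log2 difference 0.73 ± 0.24, limma adjusted p = 0.346). Map2k1 read 3.12, 3.18, 3.11 and 3.34 against 3.38, 3.48, 3.51 and 3.66, a difference of 0.32 ± 0.13 (limma adjusted p = 0.484). Arc was the third member under an unadjusted p of 0.05, at 0.8 ± 0.36 with overlapping groups. For Fos the values were 1.59, -0.49, 1.09 and 3.8 in WT_HFHS against -0.64, -0.3, 1.85 and 3.76 in CB1KO_HFHS, and for Egr1 1.88, 0.67, 2.4 and 3.83 against 0.85, 0.87, 0.97 and 3.79, so that both spread over the same range in each genotype. Their log2 differences were -0.33 ± 1.15 and -0.58 ± 0.91.

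Averaged over both diets, the members' median was 0.73, with 32 of 35 above 0, against a median of -0.12 and 28.7% above 0 over all genes. None was called in limma, where 0.708% of genes were, and 17 were higher at an unadjusted p under 0.05 (3.8% of all genes) and 1 lower (10.4%). Fosl2 came nearest, with a log2 difference of 1.16 ± 0.3 and a limma adjusted p of 0.0977, although its second probe gave -0.16, followed by Atf3 (1.74 ± 0.46, 0.102) and Jund (0.64 ± 0.19, 0.138). This count depended on how arrays were weighted: with array quality weights, 16 members and 2208 of all 28972 genes were called, against 205 genes without weights, the members all higher in CB1KO, among them Atf3, Btg2, Csrnp1, Egr2, Fosb, Fosl2, Junb, Nr4a1, Nr4a2 and Zfp36.

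The difference between the diets in the genotype effect was tested directly. The members' median interaction was -0.89, meaning a smaller CB1KO excess on HFHS, with 16 of 35 below -1 against 4.1% of all genes. None was called in limma, where 0% of genes were, so the genotype effect was not shown to differ between diets for any member. At an unadjusted p under 0.05, 6 members were lower (1.45% of all genes) and 1, Dusp4, higher (2.08%). The 6 were Ier5 (-0.88 ± 0.2, limma adjusted p = 1), Atf3 (-2.72 ± 0.92), Jun (-0.97 ± 0.33), Ier2 (-1.56 ± 0.62), Egr1 (-2.96 ± 1.29) and Egr2 (-1.43 ± 0.65). The number under 0.05, in either direction, was 7 (3.53% of all genes), and it ran from 3 without WT_SD replicate 3 or WT_HFHS replicate 4, through 4 without WT_SD replicate 4 or CB1KO_HFHS replicate 1, to 12 without WT_SD replicate 2 and 13 without CB1KO_HFHS replicate 4.

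Diet comparisons share their samples with the genotype comparisons, so the values are set side by side only. In WT, HFHS against SD gave a median of -0.29, against -0.05 over all genes, with 0 members called in limma (0% of all genes) and 0 of 35 at an unadjusted p under 0.05 (6.03% of all genes). The median was -0.09 without WT_SD replicate 2, -0.13 without WT_HFHS replicate 1 and -0.17 without WT_HFHS replicate 2. Ier5 alone had groups apart, with -1.58, -1.58, -1.71 and -1.79 in WT_HFHS (0.31 ± 0.14, against 2.19% of all genes higher without overlap). The gap was smaller than the rounding, since WT_SD replicate 1 also read -1.79. In CB1KO, HFHS against SD gave a median of -1.04, against -0.06 over all genes, with 0 members called in limma (0.0276% of all genes), 21 lower at an unadjusted p under 0.05 (4.08%) and 1 higher (5.48%). In 11 members every HFHS array was below every SD array, against 1.2% of all genes.

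The widest of these diet differences in CB1KO were those of Fos (-4.05 ± 1.15, limma adjusted p = 0.236), Fosb (-3.7 ± 1.04, 0.233), Egr1 (-3.42 ± 0.91, 0.205) and Atf3 (-2.97 ± 0.65, 0.135). All 4 were lower on each HFHS array than on any SD array. The smallest adjusted p in limma was that of Jun, 0.114, with 5.45, 5.43, 5.47 and 5.95 on the CB1KO_HFHS arrays, all below the CB1KO_SD arrays (-1.12 ± 0.23). Dusp4 was the 1 member higher, at 0.66 ± 0.24. The diets lie on different slides, so these differences cannot be told apart from a difference between slides.

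Arrays of the same group differed in how many members stood high. Of the 30 tested members other than the kinases, 27, 26, 28 and 29 were above their own median over the 16 arrays on the CB1KO_SD arrays. On the WT_SD arrays the counts were 15, 23, 4 and 7, on the WT_HFHS arrays 1, 5, 11 and 13, and on the CB1KO_HFHS arrays 2, 4, 18 and 27. CB1KO_HFHS thus held arrays with few members above their median and 1, replicate 4, with as many as CB1KO_SD replicate 1. The members on that array lay less far above their medians, by a median of 0.75 against 0.93, 0.96, 1.19 and 1.48 on the CB1KO_SD arrays. Not every member followed the counts: in WT_SD, Arc read -0.87, -0.62, -0.45 and -0.1, lowest on the arrays where Fos was high, and Egr3 was lowest on replicate 2, at -4.09, where it was not well above background. CB1KO_SD had the highest mean for 28 of the 30 and the single highest array for 27, of which 19 were on replicate 4. The same counts were not taken over all genes, so no share of all genes stands beside them.

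**Figure D4:**
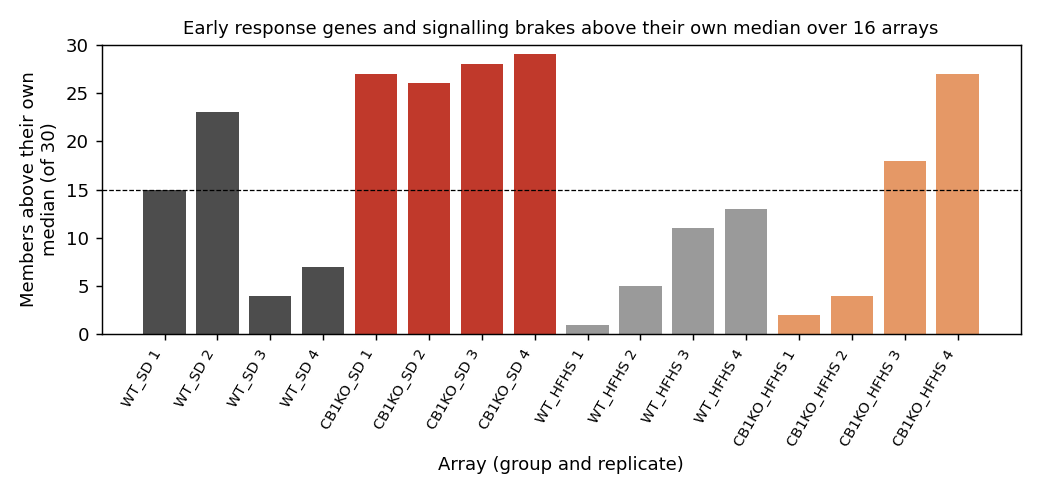
Number of the 30 early response genes and brakes (y axis) that lie above their own median over all arrays, for each of the 16 arrays (x axis, coloured by group), with a dashed line at 15. The CB1KO_SD bars reach 26 to 29, whereas the CB1KO_HFHS bars run from 2 to 27.

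The spread within groups differed between roles. The median SD within a group for the 30 members was 0.71 in WT_SD, 0.47 in CB1KO_SD, 0.46 in WT_HFHS and 0.81 in CB1KO_HFHS, and that of the 5 kinases was 0.23, 0.32, 0.11 and 0.15. Over all genes tested it was 0.31, 0.41, 0.24 and 0.3. The largest spreads were those of Fosb (2.48) and Fos (2.18) in WT_SD.

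Other genes of the pathway were taken as lists. Further early response genes had a median log2 difference of 0.58 on SD, 27 of 31 above 0 (32.6% of all genes). At an unadjusted p under 0.05, 9 were higher (2.22% of all genes) and 0 lower (6.5%). The 3 with the smallest p were Trib1, a pseudokinase (1.21 ± 0.27, limma adjusted p = 0.223), Sik1, a kinase that CREB induces (1.84 ± 0.54, 0.337), and Ccn2, a matricellular protein (1.49 ± 0.44, 0.337). On HFHS 14 of 31 were above 0, with a median of -0.04. In CB1KO, HFHS against SD gave a median of -0.57 with 14 lower at an unadjusted p under 0.05 (4.08% of all genes). These were led by Nfkbiz, a nuclear regulator of NF-kappaB targets (-1.24 ± 0.22, limma adjusted p = 0.0853). No gene of this list was called in any of the 6 comparisons.

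Lists of upstream genes, other brakes and AP-1 and CREB partners had medians between -0.12 and 0.06 on SD. Over all genes the median was -0.12, with 32.6% above 0. The Ras to ERK cascade gave -0.12 (6 of 22 above 0), the JNK and p38 cascades -0.08 (5 of 17), factors of the SRF pathway -0.08 (2 of 6), growth factor ligands and receptors -0.06 (6 of 20), other brakes 0.03 (12 of 18) and AP-1 and CREB partners 0.06 (8 of 13). Srf itself, the factor that binds the CArG box, was -0.41 ± 0.14 on SD and -0.37 ± 0.14 on HFHS (limma adjusted p = 0.415 and 0.444). Jdp2, a repressor that dimerises with Jun, was 0.76 ± 0.22 on SD and 0.6 ± 0.22 on HFHS (0.333 and 0.425). Among all these lists the 1 call was Egf, a growth factor upstream of ERK, which fell by 0.88 ± 0.19 averaged over diets (limma adjusted p = 0.0469), from 2.81 ± 0.16 to 2.09 ± 0.58 on SD and from 3.15 ± 0.38 to 2.1 ± 0.26 on HFHS (SD, n = 4). The Egf call was lost, with adjusted p up to 0.113, on leaving out any 1 of 12 of the 16 arrays (all but CB1KO_SD replicates 2 and 3, WT_HFHS replicate 3 and CB1KO_HFHS replicate 1), and with no filter on dim probes (0.0702).

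Other genes that differed along with the members were measured beside them. The 1 gene called on SD was Hspa1a, an inducible heat shock chaperone, at -0.99 ± 0.13 in WT_SD and 2.41 ± 0.57 in CB1KO_SD (SD, n = 4; log2 difference 3.4 ± 0.38 SE, limma adjusted p = 0.0125). Its call was lost without WT_SD replicate 1 (0.0771), WT_SD replicate 3 (0.0802) or CB1KO_SD replicate 4 (0.0778), and with only the 2 SD groups in the fit (0.058). Dnajb1, its co-chaperone, gave 2.26 ± 0.45 (0.148), while the summed level of 9 heat shock genes overlapped, 9.86 to 9.98 in WT_SD and 9.8 to 10.27 in CB1KO_SD. The median of these 9 genes on SD was 0.16. At an unadjusted p under 0.05, 2 of them were higher (2.22% of all genes) and 2 lower (6.5%). Slow fibre markers had a higher mean in CB1KO_SD for 10 of 10 genes, 3 of them at an unadjusted p under 0.05 (2.22% of all genes). Their median was 2.56, with a summed level of 8.44 to 9.83 against 4.53 to 8.06 in WT_SD. On HFHS the mean was higher in CB1KO for 5 of 10 (summed level 5.46 to 9.5 against 5.13 to 10.08). Within WT_SD the slow marker sum was lowest on replicates 1 and 2 (4.53 and 5.77), the arrays where Fos and Egr1 were high.

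Of markers of other cells, macrophage genes gave a median of 0 on SD (6.25 to 6.73 in CB1KO_SD, 6.18 to 6.77 in WT_SD) and 0.83 on HFHS, with 9 of 10 above 0 (6.58 to 7.17 in CB1KO_HFHS, 6.35 to 6.66 in WT_HFHS). Neutrophil genes gave 0.72 on SD with 4 of 5 above 0, although their summed level was 6.44 to 7.41 in CB1KO_SD and 7.02 to 7.49 in WT_SD. Endothelial genes gave 0.15 on SD, with 7 of 9 above 0 (5.51 to 5.94 in CB1KO_SD, 5.45 to 5.76 in WT_SD), and adipocyte genes gave -1.04, with 0 of 7 above 0 (7.49 to 8 in CB1KO_SD, 7.59 to 9.09 in WT_SD). The part of these cells, of fibre type or of heat shock in the values of the members was not tested. In whole muscle, more cells of a type and more RNA per cell cannot be told apart.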

How the data were processed

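RNA from 16 skeletal muscle samples was measured on one-colour Agilent arrays. Per the file headers, the authors' deposited scanner files come from Feature Extraction 11.5.1.1 and hold a processed intensity per spot, corrected for background within the array, with raw median intensities. The authors also deposited a score for every spot, which matched each array's log2 processed intensity, centred and divided by its SD, to within 0.00502.

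Log2 processed intensities were set relative to the array's 75th percentile, outlier spots were left out and repeat spots averaged. After this 0.0177% of tested values were missing. A probe had to be well above background on 4 or more of the 16 arrays, and each gene was read from its brightest probe. Of 55681 probes, 28026 took a symbol through their RefSeq accession. 1 mean per group was fitted in R 4.3.3 with limma 3.58.1 (lmFit, eBayes), all tests two-sided, and the script was tested on simulated data. Members and lists were chosen with earlier results of these data known. Given in full were members called in any contrast, those with an unadjusted p under 0.01 in a genotype contrast or the interaction, and Fos, Jun, Egr1 and Myc. From other lists up to 3 genes by p were named. Klf2, Fosb, Dusp1, Map2k1, Map2k2, Jdp2, Hspa1a and Dnajb1 were named after their values were seen. Alternatives covered normalization, filters, probes, variance, weights, blocks and arrays left out. Replicate numbers were not treated as pairs in the main fit. The number of arrays limits the precision.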

Additional observations from a re-analysis of the deposited data

Results flagged for a closer look

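Of 140 groups of 4 arrays examined (35 members in 4 groups), 8 held an array that stood apart by Dixon's gap test, and chance marks about 1 group in 20. In CB1KO_HFHS, replicate 4 stood apart for Jun, at 5.95 against 5.43 to 5.47 on the others, and for Egr1, at 3.79 against 0.85 to 0.97. In WT_HFHS, replicate 4 stood apart for Egr2, at -0.73 against -1.72 to -1.6, and for Nr4a2, at 1.24 against -1 to -0.65. Replicate 3 of the same group stood apart for Jund, at 5.23 against 4.36 to 4.48, and for Maff, at 0.19 against -0.99 to -0.82. Replicate 1 stood apart for Klf6, at 3.8 against 3.71 to 3.72, and for Arc, at -1.2 against -0.42 to -0.36. All 8 lay in the HFHS groups, and no cause was tested.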

How the results depend on the processing

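No member was called in any of the 6 comparisons, and this count stayed at 0 for the interaction and for diet in WT under every alternative run. It moved to 1 (Ier5) on SD with the mean of a gene's probes (3 of 28972 genes called, against 1 in the main fit). The count was also 1, again Ier5, with a covariate for signal spread (149 genes) and on leaving out the 2 arrays of unusual spread (236 genes). With array weights it moved to 2 (Egr2, Ier5), beside 106 genes. On HFHS it moved to 5 with array weights (Dusp4, Fosl2, Jund and Map2k1 higher, Mapk14 lower), where 2281 of 28972 genes were called against 68 without weights. Averaged over diets it moved to 1 with normexp and quantile normalization (Fosl2, beside 366 genes) and with the mean of a gene's probes (Ier5, 219 genes). It moved to 16 with array weights (2208 genes against 205). With the spread covariate it moved to 3 (Atf3, Egr2, Fosl2), beside 1712 genes. Without those 2 arrays it moved to 2 (Arc, Csrnp1), beside 891 genes. For diet in CB1KO it moved to 1 with the mean of a gene's probes (Ier5, beside 7 genes). With array weights it moved to 3 (Egr2, Ier5, Jun), beside 128 genes against 8 in the main fit. The cause of these moves was not tested. Leaving out each array in turn gave 0 to 0 members in each comparison, and so did the replicate block. Same-numbered arrays of the 2 genotypes correlated between -0.75 and 0.05 on SD and between 0.05 and 0.43 on HFHS. Across the diets they correlated between -0.15 and 0.02 in WT and between -0.14 and 0.61 in CB1KO. Of 16 arrays, 5 correlated best with their own number. The numbers were not treated as pairs in the main fit. Counts of all genes called ranged from 0 to 236 on SD (1 with the replicate block), 20 to 2281 on HFHS (36), 47 to 2208 averaged (59), 0 to 11 for the interaction (0), 0 to 290 for diet in WT (0) and 0 to 128 for diet in CB1KO (0). Over 40 fold changes of named genes, 873 of 914 alternatives kept direction and side of the threshold, 23 brought the value past it, 18 took a call away (Egf and Hspa1a, among them Egf with the replicate block, adjusted p = 0.114) and 0 reversed a value. The median of all genes on HFHS moved from -0.13 to -0.02 with normexp and quantile normalization, beside 0.32 and 0.28 for the members. On SD it moved from -0.12 to -0.02, beside 1.07 and 0.87 for the members.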
